A study of Danio rerio with 12 samples.

Results

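Autophagy and lysosome regulator genes were followed in zebrafish (Danio rerio) hearts across natural ageing. The 45 genes were taken by name from the 50640 genes of the expression tables: the atg genes, the gabarap and map1lc3 genes, sqstm1, the ulk kinases, becn1, the wipi genes, tfeb and tfe3, and the lamp genes. They carry 43 symbols, since ulk4 stands under 2 identifiers, and LAMP1 and lamp1 are separate genes. The hearts were from fish of 6, 12, 24 and 36 months, with 3 libraries of total RNA at each age and 12 in all. No genotype, strain, sex or treatment is given for any age, and all fish were kept under standard conditions. Whether a library came from 1 heart or from pooled hearts is not given, and p-values therefore refer to the spread among these libraries only.

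Autophagy encloses cytoplasm in a double membrane and delivers it to the lysosome. In mammals and yeast, the kinase ULK1 (Atg1 in yeast) starts the process, a lipid kinase complex with Beclin 1 marks the growing membrane, and ubiquitin-like proteins of the Atg8 family are then attached to that membrane by a conjugation machinery. Receptors such as p62, the product of sqstm1, tie cargo to Atg8, LAMP proteins line the lysosome, and the transcription factors TFEB and TFE3 switch on genes of autophagy and lysosomes. Mammalian heart muscle cells, which divide rarely, rely on this pathway to renew their proteins and mitochondria.

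Levels are FPKM as deposited, fragments per kilobase of gene scaled by an implied size per library. These sizes followed median-ratio size factors to 0.988% and not the reads in genes. In replicate 1 of 6 months the implied size was 10518489, against 9343585 reads in genes. Reads in genes ranged from 7333060 to 11145869 per library, with 7333060, 8513534 and 8673977 at 36 months and 9343585, 9006181 and 10119888 at 6 months, and the 45 genes took 0.174% to 0.220% of them. Replicate 1 of 6 months stood apart, with a mean correlation of 0.907 with the other libraries of its age, against 0.927 and 0.932 for replicates 2 and 3. It had 970 FPKM of the muscle gene ckma, against 4762 and 4080 FPKM in the other libraries of its age, and 6766 FPKM of gapdh, against 21917 and 21518 FPKM. Of the heart muscle markers, nppa, myh6 and cmlc1 averaged 4731, 1432 and 1022 FPKM, whereas vmhc and tnnt2a were listed near 0 under loci without a name. Macrophage and granulocyte markers (14 genes, 7 of them averaging at least 1 FPKM, with mfap4, marco, ptprc and lcp1 listed at 0) summed to 210 to 933 FPKM at 36 months and 91.6 to 327 FPKM at 6 months. Hepatocyte markers summed to 0.953 to 5.53 FPKM at 36 months and 4.81 to 201 FPKM at 6 months, the 201 FPKM being in replicate 1. The highest hepatocyte sum of all libraries, 629 FPKM, was in replicate 2 of 12 months, against 10.3 and 24.4 FPKM in replicates 1 and 3. Their part in the results was not tested. In whole hearts, a change in the share of a cell type and a change of RNA per cell cannot be told apart.

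Of the 45 genes, 25 averaged at least 1 FPKM over the 12 libraries and were tested, and 20 fell below. The tested members ranged from map1lc3cl at 1.01 FPKM, just inside that limit, to gabarapb at 191 FPKM. Just outside lay atg16l2, at 0.863 FPKM, and a copy of ulk4 at 0.841 FPKM. The median of the tested members was 22.3 FPKM, against 3.98 FPKM over the 16223 genes tested. Counted by role, 4 of 8 genes of the ULK group, 3 of 9 of the lipid kinase and membrane supply, 8 of 12 of Atg8 conjugation, 7 of 8 Atg8 genes, the receptor gene, 2 of 4 lamp genes and 0 of 3 transcription factor genes were tested.

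The untested genes included central regulators. Listed at 0 in all 12 libraries were tfeb and tfe3b, wipi1 and WIPI1 (1 of many), which read the lipid mark, the lipid transfer gene ATG2A, the proteases atg4b and atg4c, the conjugating enzyme gene atg10, and ulk3. The lipid kinase subunit becn1 had 5 reads over all libraries together, 4 of the 12 libraries holding at least 1, and the scramblase genes atg9a and atg9b had 4 and 9. These levels stood beside a feature of the annotation. At least 50% of the span of 18 of the 45 members (40.0%) lay under a locus without a name on the same strand, against 6868 of the 25743 protein-coding genes (26.7%). Of those 18 members, 15 (83.3%) averaged under 1 FPKM, and each of the 15 also averaged under 0.1 FPKM. The exceptions were atg7, atg13 and lamp2. Of the 27 other members, 5 (18.5%) averaged under 1 FPKM, namely LAMP5, map1lc3c, atg16l2 and both copies of ulk4. Among all protein-coding genes the shares under 1 FPKM were 85.7% of those under such a locus and 52.6% of the others. The shares under 0.1 FPKM were 66.0% and 27.0%. How the reads of an overlap were assigned was not tested, so a low listed level is not a measure of the transcript.

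**Figure D1:**
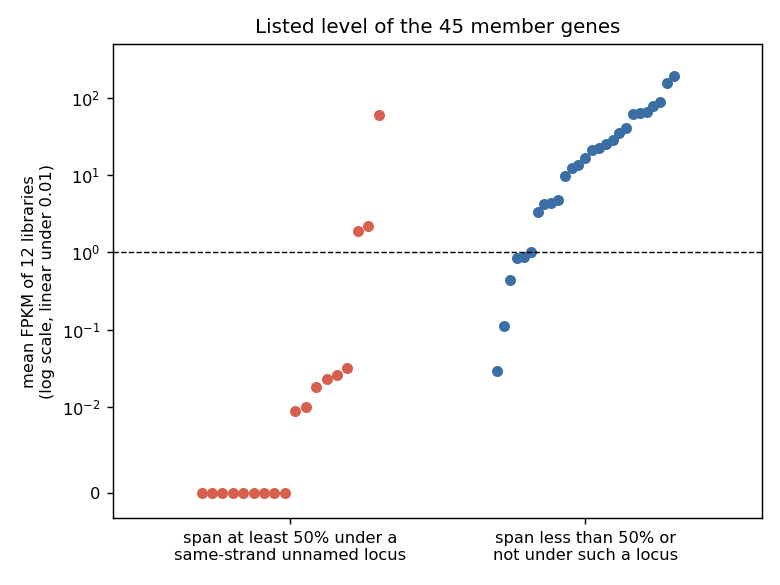
Mean FPKM of the 12 libraries for each of the 45 genes (log axis, linear below 0.01), split by whether at least 50% of the gene's span lies under a locus without a name on the same strand. Each point is a gene and the dashed line is the limit of 1 FPKM for testing. Among the 18 genes under such a locus 15 lie below the line, against 5 of the 27 others.

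Some of the overlapping loci did carry reads. The locus across tfe3b (8733 bases) averaged 6.5 ± 1.15 FPKM at 36 months and 6.80 ± 1.52 FPKM at 6 months (SD, n = 3 each), and the locus across tfe3a (22531 bases) 3.59 ± 0.163 and 5.47 ± 1.26 FPKM. Across ulk1b the locus averaged 5.0 ± 0.315 FPKM at 36 months and 3.57 ± 0.470 FPKM at 6 months, the log2 difference being 0.40 ± 0.14 (SE) with an adjusted p of 0.110. The loci across atg9a and wipi1 averaged 2.29 and 2.1 FPKM over all libraries. None of these 5 loci passed the test in any of the 6 pairwise age comparisons, across the ages or in the linear trend. The loci across tfeb, becn1, ulk3, ATG2A and atg4c were themselves listed at 0. Whether the reads of a locus come from the named gene was not tested.

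Among the measured autophagy genes, 1 passed the tests of age. Of the 25 tested members, atg4db alone passed an adjusted p of 0.05 at 36 against 6 months (limma on log2 of FPKM + 1, Benjamini-Hochberg over all genes tested), where 8.25% of all genes passed. It was also the 1 member called across the ages, where 5.28% of all genes passed, and in the linear trend, where 8.27% did. By limma, 0 members were called at 24 against 6 months (all genes 0.709%), 12 against 6 (0.0185%), 36 against 24 (1.12%), 24 against 12 (0.715%) or 36 against 12 months (3.14%), and limma voom on the recovered reads also called 0 in each. At an unadjusted p under 0.05 the members numbered 5 at 24 against 6 months (all genes 15.5%), 2 at 12 against 6 (9.45%), 1 at 36 against 24 (16.7%), 5 at 24 against 12 (14.5%) and 2 at 36 against 12 months (22.2%). At 36 against 6 months they numbered 3 of 25, where 25.6% of all genes had such a p. The median log2 difference of the members at 36 against 6 months was 0.012, against 0 over all genes tested. The highest age mean of a member was 1.28 times its lowest in the median (1.06 to 2.2), against 1.61 over all genes tested, and 21 of the 25 stayed under 1.5-fold. These ratios were not matched for level, the median level being 22.3 FPKM for the tested members and 3.98 FPKM over all genes tested. Whether the members were steadier than genes of like level was not tested. With ratios of this size, members that did not pass are given below with the interval or the SE of a difference. The exceptions are GABARAPL1, given with its means, and map1lc3cl, given with its reads.

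**Figure D2:**
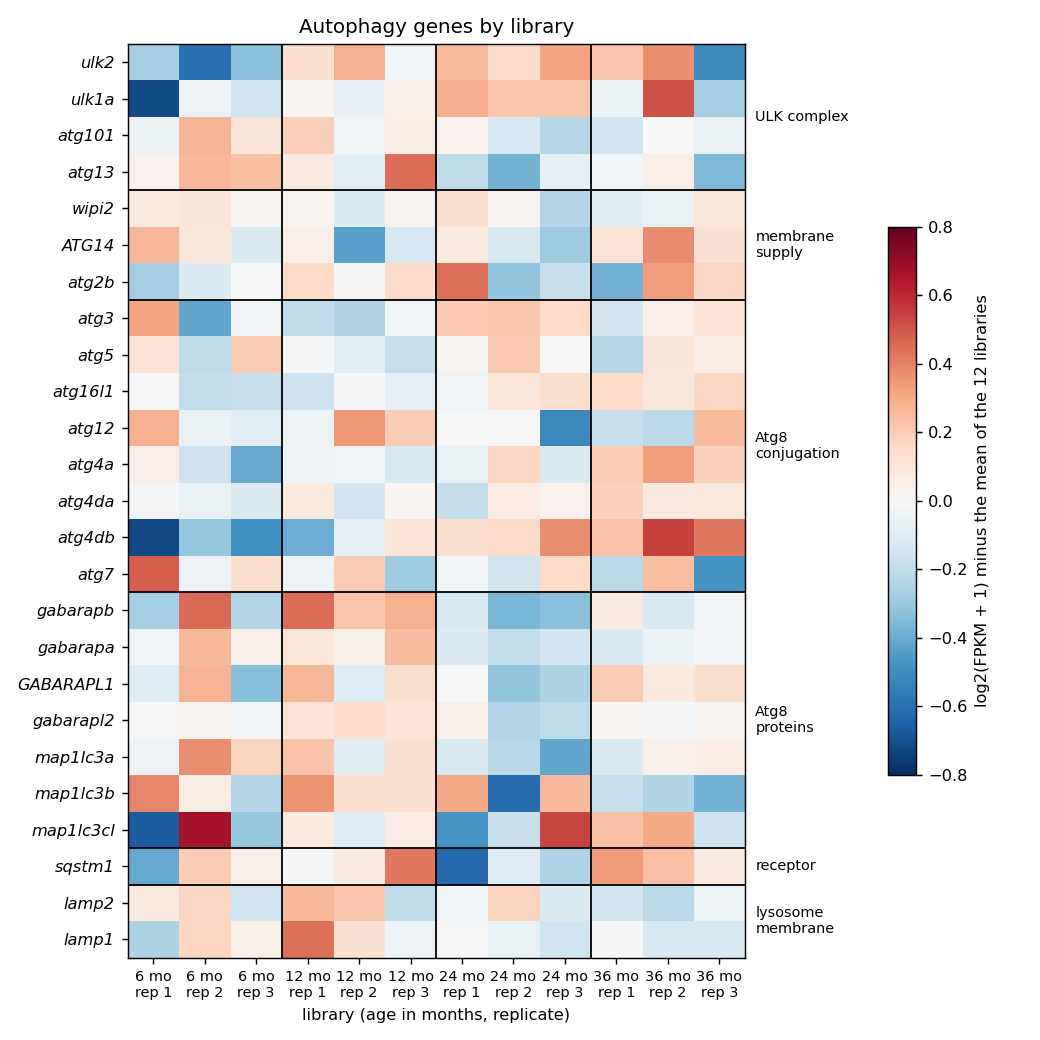
Log2 of FPKM + 1 minus the gene's mean over the 12 libraries (colour, red above and blue below the mean), for the 25 tested genes in rows grouped by role and the libraries in columns by age. The row of atg4db runs from blue at 6 months to red at 36 months, and replicate 1 of 6 months holds low values of ulk1a, atg4db and map1lc3cl.

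In mammals the ULK1 complex starts autophagy in response to nutrient and energy signals. Here ulk3 and ulk4 are grouped with its genes by name. The kinase gene ulk2 (ENSDARG00000097205; GRCz11 chromosome 15, 20907429 to 20959044, plus strand) had 33.2, 26.1 and 31.6 FPKM at 6 months, 44.0, 48.9 and 39.4 at 12, 48.0, 44.5 and 50.01 at 24, and 46.6, 52.0 and 27.8 FPKM at 36 months. All libraries of 12 and 24 months lay above those of 6 months, while replicate 3 of 36 months lay among the youngest. The log2 difference was 0.64 ± 0.20 at 24 against 6 months (adjusted p = 0.165) and 0.42 ± 0.20 at 36 against 6 months (adjusted p = 0.220, 95% interval -0.03 to 0.87). Without replicate 3 of 36 months, the difference at 36 against 6 months was 0.69 and passed (adjusted p = 0.0341). That library held the lowest ulk2 level of its age, so leaving it out raises the difference by construction. Its mean correlation with the other libraries of its age was 0.947, against 0.948 and 0.947 for replicates 1 and 2. It had the lowest macrophage and granulocyte sum of its age, at 210 FPKM against 933 and 465 FPKM. Its myh6 level was the highest, at 1712 FPKM against 975 and 795 FPKM. No conclusion is drawn from that fit, and the share of all genes that passed in it is not given here.

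Its relative ulk1a also had its lowest mean at 6 months and its highest at 24 months. It averaged 22.9 ± 5.5, 27.9 ± 1.11, 33.4 ± 0.969 and 30.1 ± 9.07 FPKM at 6, 12, 24 and 36 months (SD, n = 3 each), with 26.9, 40.3 and 23.0 FPKM in the libraries of 36 months. The libraries of 24 months (32.8 to 34.5 FPKM) lay above those of 6 months (16.6 to 27.0 FPKM), and those of 36 months overlapped every other age. Its log2 difference at 24 against 6 months was 0.55 ± 0.21 (adjusted p = 0.232). The partner subunit atg101 averaged 21.1 ± 1.09 FPKM at 36 months and 24.1 ± 2.82 FPKM at 6 months (log2 -0.18, 95% interval -0.45 to 0.09). The scaffold gene atg13 averaged 1.69 ± 0.389 and 2.27 ± 0.285 FPKM at these ages (log2 -0.29, 95% interval -0.71 to 0.13), from 28 to 86 reads per library, and is uncertain because a locus without a name covers it. Of the untested genes, ulk1b had 4 reads in all, and both copies of ulk4, which overlap each other on the same strand, averaged 0.841 and 0.439 FPKM.

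The lipid kinase and its followers prepare the membrane. The lipid-binding gene wipi2 (ENSDARG00000037871; chromosome 3, 40679799 to 40695360, minus strand), whose mammalian product brings Atg16l1 to the membrane, was the steadiest member. It had 37.2, 37.8 and 35.8 FPKM at 6 months, 35.8, 32.5 and 35.8 at 12, 38.6, 35.8 and 29.8 at 24, and 32.8, 33.8 and 37.5 FPKM at 36 months. The ages overlapped throughout, with a highest age mean 1.06 times the lowest and a log2 difference at 36 against 6 months between -0.35 and 0.17 (95% interval).

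ATG14 (ENSDARG00000002670; chromosome 17, 10592332 to 10610643, plus strand), which steers the lipid kinase to autophagy, had 14.7, 13.0 and 11.1 FPKM at 6 months, 12.6, 8.65 and 10.9 at 12, 12.8, 10.96 and 9.66 at 24, and 13.2, 16.0 and 13.2 FPKM at 36 months. The libraries of 36 months lay above those of 12 and 24 months and overlapped those of 6 months. Its log2 differences were 0.38 ± 0.16 at 36 against 12 months (adjusted p = 0.207) and 0.32 ± 0.16 at 36 against 24 months (adjusted p = 0.352). The lipid transfer gene atg2b averaged 3.47 ± 1.08 FPKM at 36 months and 2.90 ± 0.382 FPKM at 6 months (log2 0.17, 95% interval -0.33 to 0.67). The other 6 genes of the group were listed near 0, as given above.

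Conjugation of Atg8 held the 1 member that passed the tests of age. Atg4 proteases trim new Atg8 proteins so that they can be attached to lipid, and later cut them off the membrane again. The level of atg4db (ENSDARG00000088145; GRCz11 chromosome 3, 6806548 to 6833464, minus strand), an Atg4D gene, was 2.07, 3.1 and 2.6 FPKM at 6 months, 2.84, 3.82 and 4.45 at 12, 4.57, 4.62 and 5.53 at 24, and 4.93, 6.40 and 5.78 FPKM at 36 months. Each library of 24 and 36 months lay above each library of 6 and 12 months, and the ranges of neighbouring ages overlapped at 6 and 12 months and at 24 and 36 months. The means were 2.59 ± 0.515, 3.71 ± 0.812, 4.91 ± 0.543 and 5.71 ± 0.736 FPKM in order of age (SD, n = 3 each). No other gene or locus of the tables overlaps it.

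At 36 against 6 months atg4db rose, with a log2 difference in FPKM + 1 of 0.91 ± 0.17 (SE, 95% interval 0.53 to 1.28, adjusted p = 0.0138), higher in 3 of 3 libraries. Its linear trend was 0.87 ± 0.16 over the 30 months (adjusted p = 0.0116), and across the ages the adjusted p was 0.0378. At 24 against 6 months the difference of 0.73 ± 0.17 did not pass (adjusted p = 0.0838), nor did 0.52 ± 0.17 at 36 against 12 months (adjusted p = 0.117). The values rest on 33 to 87 reads per library. With replicate 2 of 36 months left out it no longer passed at 36 against 6 months (adjusted p = 0.0517), nor did it in a fit of those ages alone (0.0650). The call across the ages ended without any 1 of 10 libraries, all but replicate 1 of 6 months and replicate 3 of 12 months (adjusted p up to 0.0947), with no filter on low genes (0.0735) and by limma voom (0.0634), whereas the linear trend passed without each library in turn (0.0109 to 0.0402). Without replicate 1 of 6 months, which stood apart and had the lowest level of the gene, atg4db still rose at 36 against 6 months (log2 0.80, adjusted p = 0.0215). That library also had the highest sum of macrophage and granulocyte markers of its age, 327 FPKM against 94.4 and 91.6 FPKM.

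The other Atg4 genes lay closer together. For atg4a (ENSDARG00000014531; chromosome 21, 43490336 to 43513695, plus strand) the libraries held 4.94, 4.09 and 3.33 FPKM at 6 months, 4.53, 4.60 and 4.26 at 12, 4.48, 5.42 and 4.27 at 24, and 5.59, 6.22 and 5.49 FPKM at 36 months. The 3 libraries of 36 months lay above the other 9. The log2 difference at 36 against 6 months was 0.41 ± 0.14 (95% interval 0.10 to 0.73, adjusted p = 0.102), and it passed without replicate 1 of 6 months (log2 0.52, adjusted p = 0.0397). That library held the highest atg4a level of its age, so leaving it out raises the difference. In that fit 2 of the 25 members passed, where 12.9% of all genes tested did. The second Atg4D gene, atg4da, averaged 4.81 ± 0.252 FPKM at 36 months and 4.14 ± 0.180 FPKM at 6 months (log2 0.18, 95% interval -0.10 to 0.45). The listed Atg4 levels summed to 10.8 ± 0.838, 12.5 ± 0.582, 13.9 ± 1.01 and 16.3 ± 0.861 FPKM at 6, 12, 24 and 36 months, without atg4b and atg4c, which were listed at 0. Of that sum, atg4db made up 24.0% ± 4.95, 29.6% ± 5.34, 35.4% ± 3.62 and 35.0% ± 2.96. The sums describe these libraries, and no test was made of them.

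**Figure D3:**
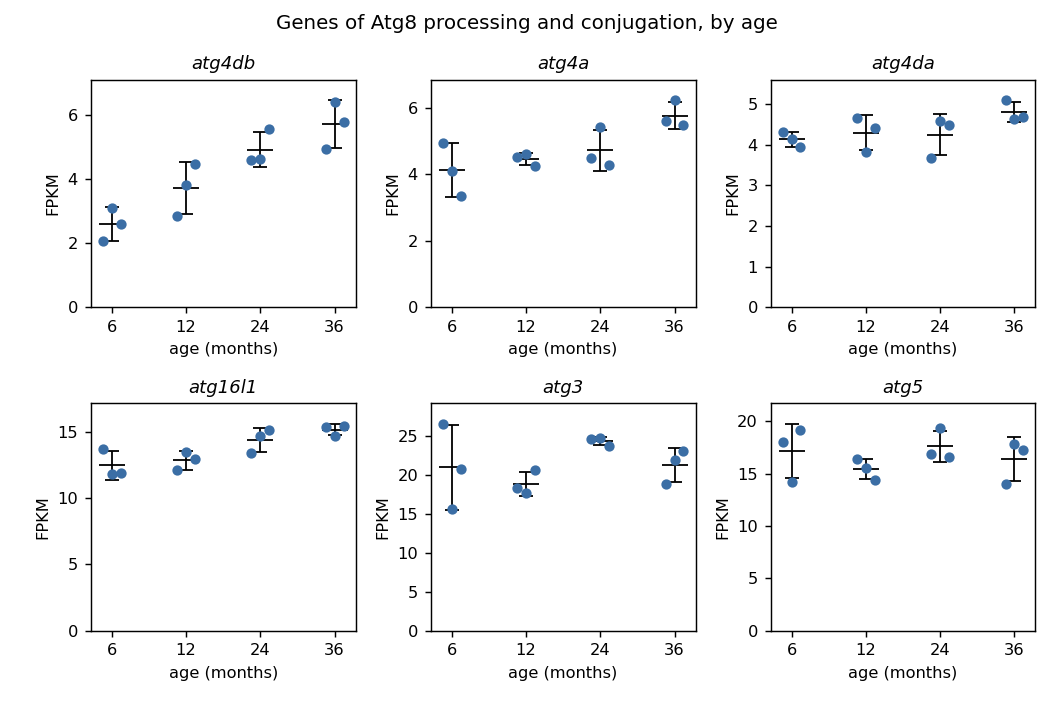
FPKM of 6 genes of Atg8 processing and conjugation by age in months. Points are libraries, horizontal lines the mean and bars the SD of the 3 libraries of an age. The libraries of atg4db lie at 2.07 to 3.1 FPKM at 6 months and at 4.93 to 6.40 FPKM at 36 months, while atg3 and atg5 overlap between these ages.

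The genes of the enzymes that attach Atg8 to the membrane did not pass in any comparison. The scaffold gene atg16l1 had 13.7, 11.8 and 11.9 FPKM at 6 months, 12.1, 13.5 and 12.9 at 12, 13.4, 14.7 and 15.1 at 24, and 15.3, 14.7 and 15.5 FPKM at 36 months. The libraries of 36 months lay above those of 6 and 12 months, and the log2 difference at 36 against 6 months was 0.27 ± 0.11 (95% interval 0.03 to 0.50, adjusted p = 0.146). Its linear trend of 0.28 ± 0.10 did not pass (adjusted p = 0.0876), but passed among genes of at least 5 FPKM (0.0480) and without replicate 1 of 6 months (adjusted p = 0.0464), where 3 members and 13.1% of all genes tested had a called trend. The gene is uncertain, since a locus of 342 bases without a name and a pair of SCARNA6 genes lie on its strand, that locus averaging 7.96 ± 0.196 FPKM at 36 months and 2.18 ± 3.31 FPKM at 6 months.

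The conjugating enzyme gene atg3 (ENSDARG00000009350; chromosome 6, 6952785 to 6966041, minus strand) was the highest of the group. It had 26.6, 15.6 and 20.9 FPKM at 6 months, 18.3, 17.8 and 20.6 at 12, 24.6, 24.8 and 23.8 at 24, and 18.9, 21.98 and 23.1 FPKM at 36 months. The libraries of 24 months lay above those of 12 months, and those of 6 months spanned all others. Its log2 difference was 0.35 ± 0.17 at 24 against 12 months (adjusted p = 0.365) and 0.05 at 36 against 6 months (95% interval -0.32 to 0.41). At 36 against 6 months, atg5 averaged 16.4 ± 2.08 and 17.1 ± 2.58 FPKM (log2 -0.06, 95% interval -0.37 to 0.25), and atg12, the ubiquitin-like partner of Atg5, averaged 9.36 ± 1.97 and 10.04 ± 1.6 FPKM (log2 -0.10, 95% interval -0.53 to 0.33). The activating enzyme gene atg7 averaged 1.92 ± 0.755 and 2.67 ± 0.693 FPKM (log2 -0.34, 95% interval -0.84 to 0.15). It is uncertain, being covered by a locus without a name on its strand. It also lies wholly within the span of vgll4b on the other strand, which averaged 25.2 FPKM, and whether strand was used in counting is not given in the sources used here. The untested atg16l2 averaged 0.863 FPKM from 9 to 30 reads per library.

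The Atg8 genes were the highest members, and 0 of the 7 tested passed the test. Of the 7, 5 had their lowest age mean at 24 months, as did 9 of the 25 members and 23.6% of all genes tested. In mammals the GABARAP and LC3 subfamilies both coat the autophagosome. The level of gabarapb (ENSDARG00000052082; chromosome 7, 69232092 to 69239764, plus strand) was 155, 256 and 159 FPKM at 6 months, 255, 218 and 228 at 12, 172, 145 and 148 at 24, and 196, 172 and 184 FPKM at 36 months. The libraries of 24 months lay below those of 12 months, and replicate 2 of 6 months stood above the other libraries of its age. The log2 difference was -0.59 ± 0.18 at 24 against 12 months (adjusted p = 0.164) and -0.01 at 36 against 6 months (95% interval -0.40 to 0.39).

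Another 5 Atg8 genes also had lower means at 24 than at 12 months. In these libraries gabarapa averaged 140 ± 4.24 FPKM at 24 months and 171 ± 12.7 FPKM at 12 months (log2 -0.29 ± 0.11, adjusted p = 0.253), and gabarapl2 71.1 ± 7.73 and 84.8 ± 1.35 FPKM (log2 -0.25 ± 0.10, adjusted p = 0.269). The LC3 gene map1lc3a averaged 54.0 ± 5.65 and 68.7 ± 7.95 FPKM at these ages (log2 -0.34 ± 0.14, adjusted p = 0.293), though a second coding gene lies across 84.3% of its span on the same strand, listed at 0. The ranges of these 3 genes and of gabarapb did not overlap between 24 and 12 months. GABARAPL1 averaged 76.9 ± 9.39 and 94.2 ± 12.0 FPKM and map1lc3b 65.0 ± 20.8 and 73.6 ± 6.88 FPKM, with overlapping ranges. Sums of some cell type markers also differed between these ages. Erythroid markers (7 genes, 3 of them averaging at least 1 FPKM, with hbaa1 listed at 0) summed to 1209 to 2947 FPKM at 24 months and 5722 to 6671 FPKM at 12 months. The gene hbba2 made up most of that sum, while alas2 overlapped, at 25.9 to 44.1 and 29.1 to 59.3 FPKM. Heart muscle markers (10 genes, 6 of them averaging at least 1 FPKM) summed to 6089 to 7341 and 8069 to 11528 FPKM, and macrophage and granulocyte markers to 502 to 1532 and 238 to 405 FPKM. The heart muscle markers did not all fall: of the 6 averaging at least 1 FPKM, 2 were higher and 4 lower at 24 months. Among them tnni1b, under a locus without a name, had 23.0, 23.5 and 28.5 FPKM at 24 months, against 7.81, 11.4 and 14.9 FPKM at 12 months. The glycolytic gene gapdh had 8975 to 13512 FPKM at 24 months and 17938 to 22596 FPKM at 12 months. In none of these 4 did the ages overlap, though without lyz the macrophage and granulocyte sums did, at 148 to 196 and 88.8 to 182 FPKM. Their part in the levels of the Atg8 genes and sqstm1 was not tested. The genes of this family are paralogs, and how reads shared between them were counted is not given in the sources used here.

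At 36 against 6 months the intervals of the Atg8 genes all held 0. Here gabarapa averaged 149 ± 5.12 and 167 ± 17.7 FPKM, gabarapl2 78.3 ± 0.979 and 77.6 ± 1.05 FPKM, and GABARAPL1 96.4 ± 4.12 and 85.4 ± 18.9 FPKM. The LC3 gene map1lc3a averaged 64.0 ± 4.35 and 72.8 ± 10.6 FPKM, and map1lc3b 52.4 ± 3.62 and 67.5 ± 14.8 FPKM (log2 -0.34, 95% interval -0.85 to 0.18). The low gene map1lc3cl ranged from 3 to 22 reads per library, and map1lc3c was untested with 10 reads in all. Summed over the family, the levels were 661 ± 102, 728 ± 46.1, 563 ± 54.5 and 626 ± 11.8 FPKM at 6, 12, 24 and 36 months. The GABARAP subfamily made up 78.5% ± 2.17, 80.3% ± 0.752, 78.8% ± 2.07 and 81.2% ± 0.769 of the sum, with the rest in the LC3 genes.

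The receptor gene sqstm1 (ENSDARG00000075014; chromosome 14, 16460339 to 16465752, plus strand) also had its lowest mean at 24 months. It had 46.2, 70.9 and 63.6 FPKM at 6 months, 61.0, 64.6 and 82.6 at 12, 39.5, 57.3 and 51.6 at 24, and 78.3, 72.6 and 64.7 FPKM at 36 months. The libraries of 24 months lay below those of 12 and of 36 months, and those of 6 months overlapped every age. The log2 difference was -0.48 ± 0.19 at 24 against 12 months (adjusted p = 0.276), 0.54 ± 0.19 at 36 against 24 months (adjusted p = 0.192) and 0.27 ± 0.19 at 36 against 6 months (adjusted p = 0.406, 95% interval -0.15 to 0.69). The transcript level does not measure the p62 protein, which autophagy itself degrades.

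**Figure D4:**
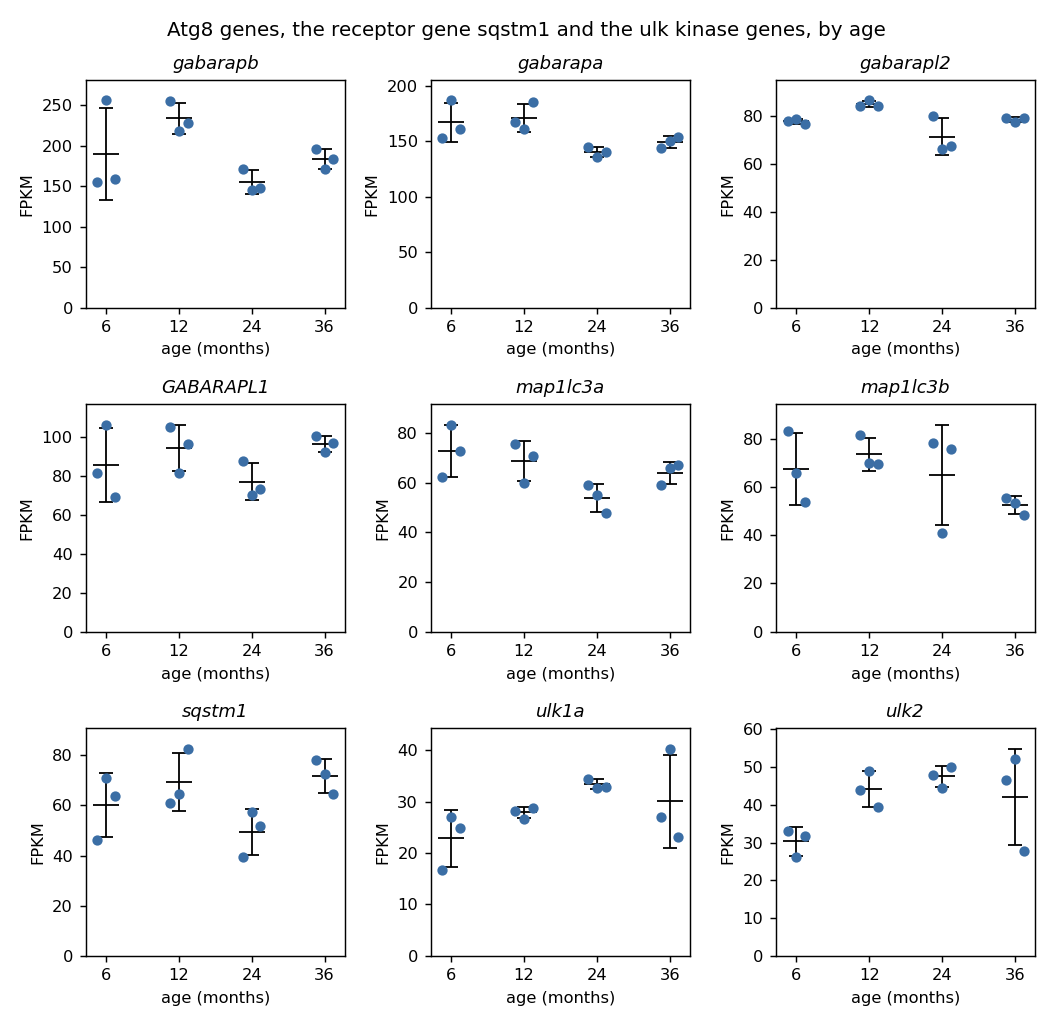
FPKM of the 6 highest Atg8 genes, sqstm1, ulk1a and ulk2 by age in months. Points are libraries, horizontal lines the mean and bars the SD of the 3 libraries of an age. For gabarapb, gabarapa, gabarapl2, map1lc3a and sqstm1 the libraries of 24 months lie below those of 12 months, and for ulk2 those of 12 and 24 months lie above those of 6 months.

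Together, at 24 against 12 months, these 5 genes (gabarapb, gabarapa, gabarapl2, map1lc3a and sqstm1) were those with an unadjusted p under 0.05, as had 14.5% of all genes tested, and none passed the adjustment. The median of the 25 members was -0.080 on the log2 scale, against -0.0012 over all genes tested. Between 24 and 12 months the ranges did not overlap for 4 members higher and 5 lower at 24 months, where 11.9% and 11.2% of all genes tested were so. At 36 against 6 months the ranges of 4 members did not overlap, all higher at 36 months (atg4db, atg4a, atg16l1 and atg4da), and 0 were lower, where 13.4% and 14.4% of all genes were.

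The lysosomal membrane genes overlapped between all ages. The level of lamp2 (ENSDARG00000014914; chromosome 14, 33133457 to 33141276, minus strand), whose loss in people causes Danon disease of the heart, was 62.3, 66.1 and 53.0 FPKM at 6 months, 70.8, 68.6 and 51.1 at 12, 57.8, 66.7 and 54.3 at 24, and 53.0, 50.6 and 57.4 FPKM at 36 months. Its log2 difference at 36 against 6 months was -0.16 (95% interval -0.49 to 0.16). A locus without a name, listed at 0, covers 95.4% of its span on the same strand. For lamp1 (ENSDARG00000092610; chromosome 9, 34571114 to 34580690, plus strand) the libraries held 20.8, 28.3 and 25.9 FPKM at 6 months, 34.2, 27.3 and 24.2 at 12, 25.1, 23.9 and 22.3 at 24, and 24.7, 22.7 and 22.9 FPKM at 36 months. Replicate 1 of 12 months stood above the rest, and the log2 difference at 36 against 6 months was -0.08 (95% interval -0.41 to 0.25). LAMP1 on chromosome 1 and LAMP5 had 4 and 2 reads in all.

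**Figure D5:**
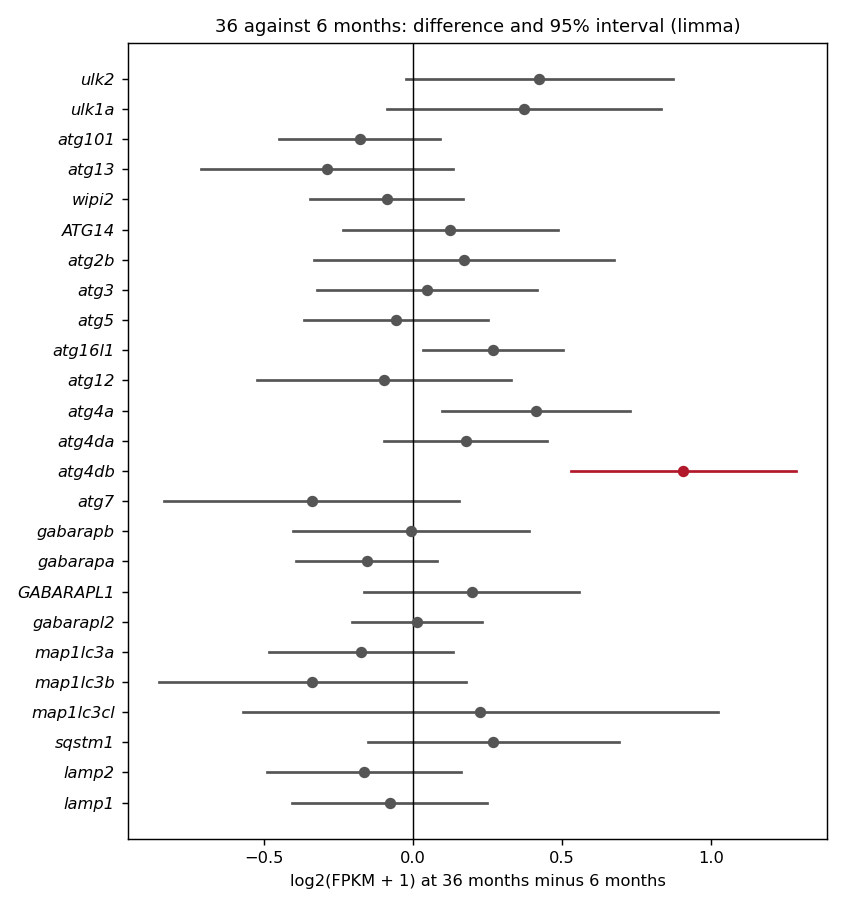
Difference in log2 of FPKM + 1 at 36 months minus 6 months for the 25 tested genes (points) with its 95% interval from limma (lines), in order of role. The gene called after adjustment, atg4db, is in red at 0.91, and the intervals of atg4a and atg16l1 also lie above 0 without passing the adjustment.

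Genes that act with these members were read from 6 lists, holding 301 genes of which 198 were tested. At 36 against 6 months 13 of the 198 passed, 9 higher and 4 lower, beside 3.95% and 4.30% of all genes, and the median of the 198 was 0.048 on the log2 scale, against 0. By list, 1 of 49 lysosomal enzymes, 1 of 32 lysosomal membrane genes, 0 of 19 vacuolar ATPase genes, 5 of 35 genes of other autophagy machinery, 4 of 20 genes of selective autophagy and 2 of 43 genes of TORC1, AMPK and TFEB control passed. The vacuolar ATPase acidifies the lysosome, and limma voom on the recovered reads also called 0 of its genes. At an unadjusted p under 0.05 its list held 3 of 19 genes, of which 2 were lower, where 25.6% of all genes had such a p. Over the 6 lists limma voom called 13 of the 198 genes. The 13 did not hold up evenly. Leaving out a single library gave counts of 6 to 37. The count was 37 when replicate 1 of 6 months was dropped, 7 for replicate 2 and 6 for replicate 3 of that age, and for the libraries of 36 months 6, 7 and 7 in order of replicate. Calls over all genes moved as well, from 8.25% with all libraries to 12.9% without replicate 1 of 6 months. Shares of all genes are not given here for limma voom or the other left-out libraries.

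Of the 13 genes, keap1a, rubcn and sesn3 passed without each library in turn. The level of keap1a, the gene of the Nrf2 adaptor that p62 binds and not itself a receptor, was 32.5, 30.6 and 31.9 FPKM at 36 months, against 14.8, 16.1 and 16.2 FPKM at 6 months. The rise was 0.97 ± 0.12 in log2 units (adjusted p = 0.00251). For rubcn, which in mammals restrains the fusion of autophagosomes and lysosomes, the libraries held 7.02, 7.55 and 5.51 FPKM at 36 months, against 3.66, 2.90 and 3.40 FPKM at 6 months. It rose by 0.83 ± 0.15 (adjusted p = 0.0122), though not in a fit of those ages alone (0.0701), and was also higher at 36 against 12 months (log2 1.01, adjusted p = 0.00964). The sestrin gene sesn3, of a family that holds back TORC1 in mammals, had 13.8, 10.1 and 12.9 FPKM at 36 months, against 26.3, 33.2 and 27.7 FPKM at 6 months. It fell by 1.18 ± 0.16 on the log2 scale (adjusted p = 0.00387). Most of that fall in the means already lay between 6 and 12 months, with means of 15.2 ± 2.24 FPKM at 12 and 17.4 ± 2.13 FPKM at 24 months. At 12 against 6 months the difference of sesn3 did not pass the adjustment. The means of keap1a at 12 and 24 months were 24.1 ± 2.76 and 21.5 ± 2.56 FPKM. None of the 3 overlapped between 36 and 6 months.

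The other called genes of the lists each lost their call without at least 1 library and in a fit of those ages alone. In other autophagy machinery, plekhm1, an adaptor of lysosome fusion, rose to 7.76 ± 1.35 FPKM at 36 months, against 3.97 ± 0.948 FPKM at 6 months, and nrbf2b, of the lipid kinase complex, rose to 25.4 ± 2.55 against 16.4 ± 2.44 FPKM. In the same list tp53inp2, whose mammalian product binds Atg8 proteins, fell to 7.22 ± 0.934 against 16.4 ± 5.42 FPKM. Its relative tp53inp1, the fifth call of that list and chosen after its values were seen, rose to 21.98 ± 7.85 against 9.10 ± 2.75 FPKM. The mitophagy receptor gene bnip3lb rose to 179 ± 17.7 FPKM at 36 months, against 119 ± 13.0 FPKM at 6 months, and retreg2, a receptor for endoplasmic reticulum, to 18.6 ± 0.615 against 12.6 ± 0.573 FPKM. The ubiquitin ligase gene park2 fell to 3.67 ± 0.659 against 6.94 ± 1.07 FPKM, with a locus without a name on its strand. ARSB, an arylsulfatase, rose to 24.8 ± 0.421 against 14.7 ± 1.99 FPKM, but its span holds other genes and loci on the same strand, and its level is uncertain. The gene gb:eh507706, an older symbol of the channel gene tpcn3, fell to 13.8 ± 1.91 against 23.8 ± 1.44 FPKM. The gene gatsl2, an older symbol of castor2, rose to 44.99 ± 4.54 against 30.7 ± 2.14 FPKM.

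Those calls ended as follows. Without replicate 2 of 36 months plekhm1, nrbf2b, tp53inp1, retreg2, ARSB, gb:eh507706 and gatsl2 no longer passed. Without replicate 1 of 36 months this held for plekhm1, nrbf2b, tp53inp1, tp53inp2, bnip3lb, retreg2, gb:eh507706 and gatsl2, and without replicate 3 for nrbf2b, tp53inp1, tp53inp2, bnip3lb, ARSB and gatsl2. Without replicate 2 of 6 months it held for plekhm1, tp53inp1, tp53inp2, park2, gb:eh507706 and gatsl2, without replicate 3 for plekhm1, nrbf2b, tp53inp1, bnip3lb, park2, gb:eh507706 and gatsl2, and without replicate 1 of 12 months for gatsl2. The largest adjusted p then was 0.103, for gatsl2, and in a fit of those ages alone the adjusted p of these 10 ran from 0.0620 to 0.105. With replicate number as a block nrbf2b (adjusted p = 0.0538) and gatsl2 (0.0559) did not pass, with no filter on low genes tp53inp1 (0.0659) and gatsl2 (0.0521) did not, and without the eBayes trend gatsl2 did not (0.0505). In the other comparisons 0 of the 198 genes passed by limma at 24 against 6 (all genes 0.709%) and at 12 against 6 months (0.0185%). At an unadjusted p under 0.05 they numbered 32 and 9, where 15.5% and 9.45% of all genes were. At 36 against 24 months 1 passed (bnip3lb, all genes 1.12%), and at 24 against 12 months 1 (ARSB, all genes 0.715%). At 36 against 12 months 4 passed (ARSB, rubcn and man2b2 higher, cab39l lower), where 3.14% of all genes did. Without replicate 1 of 6 months the count at 24 against 6 months was 9 of the 198 genes, beside 1.97% of all genes tested, with 5 higher (atp6v1f, cd63, ctss1, naga and plekhm1) and 4 lower at 24 months.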

How the data were processed

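Total RNA of zebrafish hearts was extracted with Trizol and sequenced by the authors. Per the submitters' processing notes, CASAVA 1.8 and HISAT2 2.0.5 and the GRCz11 build were used; the tool that assigned reads to genes, the annotation release and the use of strand are not given in the sources used here. The authors deposited FPKM per library, in 4 tables of the same 50640 genes, of which 15524 are loci without a name. FPKM times gene length gave whole reads for 100% of values within 0.01 read, and the implied library sizes followed median-ratio size factors to 0.988%, so the tables share a scale. For a gene of 1 kilobase, 1 read is 0.0878 to 0.136 FPKM.

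Genes with a mean of at least 1 FPKM (16223) were tested on log2(FPKM + 1) with limma 3.58.1 in R 4.3.3: 4 age means fitted to all 12 libraries, eBayes with trend, two-sided tests, Benjamini-Hochberg over all genes tested and a threshold of 0.05. From it came 6 pairwise comparisons of ages and an F test over the 4 means, and a second fit gave the linear trend in months. A log2 difference understates the change of low genes. The alternatives changed the pseudocount, filter, scale, replicate block, ages in the fit, eBayes trend, form of the trend in age and unnamed loci, used limma voom on the recovered reads, or left out each library in turn. Among the changes of scale, median-ratio size factors left the values nearly as they were, since the deposited scale already followed them. The pathway lists were put through them as an addition made after the data were seen. The fit was tested on simulated data.

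The members and lists were chosen with earlier results of these data known. By the rule, members were named when called, when highest in their role or when smallest in p across the ages within it, and up to 4 called genes per list. Values of the other members were given besides, to account for each, and tp53inp1 and the few list genes called in other comparisons were named after their values were seen. Of 331 listed symbols, 287 were found by name, 19 by synonym and 25 not at all. Sex, strain, pooling and batch were not modelled, since the labels give none. Figures were made in Python 3.11.15 with matplotlib 3.10.9, numpy 2.4.6 and pandas 2.3.3.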

Additional observations from a re-analysis of the deposited data

How the results depend on the processing

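Members called at 36 against 6 months numbered 0 with a minimum mean of 5 FPKM, which leaves atg4db out, and 0 with only those ages in the fit, and ran from 0 to 2 without single libraries. Across the ages the count was 0 with no filter, 0 with a minimum of 5 FPKM (both against 1) and 0 by limma voom, and ran from 0 to 1 without single libraries. The linear trend called 1 to 3 members without single libraries. Among the genes of the 6 lists 13 were called at 36 against 6 months, 2 with only those ages in the fit and 6 to 37 without single libraries. The 37 came without replicate 1 of 6 months, where 12.9% of all genes passed, against 8.25% with all libraries. Shares of all genes in the other fits are not given here. The cause was not tested. In the other 5 pairwise comparisons 0 members were called under each setting run. With replicate number as a block, 1 member was called at 36 against 6 months, 1 across the ages and 1 in the trend, and 11 list genes, nrbf2b and gatsl2 being lost. The numbers are not known to pair libraries: over 18 same-numbered pairs the deviations from the age means correlated at -0.154 to 0.106, with 1 pair over 0.1, and 3 of 12 libraries correlated best with their own number. The largest shift of the median over all genes from rescaling was 0.0536 (log2). The lowest tested member had 3 to 22 reads per library, and the smallest difference detectable at such depths was not computed.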

Other observations

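Leaving out replicate 1 of 6 months, the library that stood apart, raised the number of genes that passed at 36 against 6 months by limma. Over all genes tested the share rose from 8.25% to 12.9%, with 966 of the 16223 genes then called higher and 1122 lower at 36 months. With all libraries, 13 of the 198 genes tested on the 6 lists and 0 of the 19 vacuolar ATPase genes had passed. Whether the lists gained more than all genes did was not tested. Of the 198 genes tested on the 6 lists 37 passed (18.7%), 28 higher and 9 lower, beside 12.9% of all genes tested, and of the 25 members atg4db and atg4a passed (8.0%). By list these were 7 of 49 lysosomal enzymes (14.3%, near the share of all genes), 6 of them higher. They were also 7 of 32 lysosomal membrane genes (21.9%), 5 of them higher, and 6 of 19 vacuolar ATPase genes (31.6%), 4 of them higher. Also called were 7 of 20 genes of selective autophagy (35.0%), 6 of 35 of other autophagy machinery (17.1%) and 4 of 43 of TORC1, AMPK and TFEB control (9.30%). The lysosomal genes called included the cathepsin gene ctsc, the glucuronidase gene gusb, and npc1 and npc2, which move cholesterol out of the lysosome. The median log2 difference was 0.35 for the enzymes, 0.12 for the membrane genes, 0.21 for the vacuolar ATPase, 0.069 for other machinery, -0.097 for selective autophagy and -0.017 for TORC1, AMPK and TFEB control. With all libraries these medians were 0.11, 0.045, 0.15, 0.041, 0.064 and -0.066 in the same order, so that of selective autophagy changed sign. That library had the highest sum of macrophage and granulocyte markers of its age. It also had the highest hepatocyte sum (201 FPKM, against 4.81 and 11.1 FPKM) and erythroid sum (5634 FPKM, against 2168 and 2601 FPKM), and the lowest ckma (970 FPKM, against 4762 and 4080 FPKM) and gapdh (6766 FPKM, against 21917 and 21518 FPKM). Without it coro1a, csf1ra and lyz of the 7 tested macrophage and granulocyte markers also passed, all higher at 36 months. Of these, csf1ra lies under a locus without a name. Replicate 1 of 6 months held the highest level of each of these genes at its age, so leaving it out raises their differences by construction. With all libraries, 6 of the 7 were higher at 36 months and 1 was lower. The lower one, csf1rb, had 3.61, 2.37 and 3.15 FPKM at 36 months, against 5.44, 3.18 and 4.40 FPKM at 6 months. The summed markers without lyz lay at 147 to 249 FPKM at 36 months, and at 250, 81.6 and 80.9 FPKM in replicates 1, 2 and 3 of 6 months. Their part in the lysosomal genes was not tested.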
